A study of Rattus norvegicus with 52 samples.

Results

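Cytokines, chemokines and their receptors were followed in rat dorsal root ganglia, which hold the cell bodies of sensory neurons, for 14 d after 2 kinds of lesion. The members are 82 genes of the 6028 genes named on the arrays. They were chosen by symbol: chemokine ligands and receptors, interleukins and their receptors, the tumour necrosis factor (TNF) family, interferons, colony-stimulating factors, the cytokines that signal through gp130, and the suppressors of cytokine signalling (SOCS). The rule left out 1 chemokine ligand, and the probe with the highest mean was used for a gene that had more than 1. The rule used no measured change.

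Total RNA of L4, L5 and L6 ganglia was hybridised to 2-colour oligonucleotide arrays, read here as 52 channels in 16 groups. The groups were SN at 6, 12, 24, 48 and 72 h and at 7 and 14 d, DR at the same 7 times, and 2 controls named CON(SN) and CON(DR). The abbreviations are not spelled out in the labels. Going by knowledge of the study, SN denotes a sciatic nerve lesion, which cuts off the peripheral axon of these neurons, and DR a dorsal root lesion, which cuts off the central axon. The rats' strain, sex and age and the kind of control operation are not given in the sources used here. Each group was 1 RNA pool of 3 animals, hybridised 3 times (4 times for DR6h and DR48h, 5 times for DR12h). Channels of a group thus repeat the measurement of 1 pool, and the lesion cannot be told apart from the 3 animals of its pool. Every p-value below measures the spread between hybridisations, except in the tests with the pool as the unit. Those measure the spread between pools. A whole ganglion holds neurons, glia, vessel cells and immune cells, and more cells of a type cannot be told apart from more RNA per cell.

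Cytokines are secreted proteins that carry signals between cells, and chemokines are the ones that draw cells along a gradient. The cytokines of the interleukin-6 family share the receptor chain gp130, encoded by Il6st, and pass their signal through Janus kinases to STAT transcription factors. SOCS proteins are made in response and shut that pathway down. In injured peripheral nerve this family is known for its action on sensory neurons and glia, and macrophages are known to enter both the nerve and the ganglion.

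The promoters of 4 members are shown because the results turn on these genes: Il6, Il4r and Tnfrsf1a led the SN course, and Cntf was called over the DR course with its largest change at 6 h. Each sequence is the 250 bases before the gene's RefSeq start on the rat build GRCr8, written 5′ to 3′ on the gene's own strand. Il6 lies at chr4:5894576-5894825 on the minus strand, Il4r at chr1:189545525-189545774 on the plus strand, Tnfrsf1a at chr4:159836869-159837118 on the plus strand and Cntf at chr1:219314536-219314785 on the minus strand. Capitals mark matches to 4 motifs searched on both strands.
Il6: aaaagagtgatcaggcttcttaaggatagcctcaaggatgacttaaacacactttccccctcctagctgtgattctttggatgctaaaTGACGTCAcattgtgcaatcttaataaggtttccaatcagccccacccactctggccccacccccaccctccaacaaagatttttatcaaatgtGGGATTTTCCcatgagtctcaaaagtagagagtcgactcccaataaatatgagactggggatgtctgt
Il4r: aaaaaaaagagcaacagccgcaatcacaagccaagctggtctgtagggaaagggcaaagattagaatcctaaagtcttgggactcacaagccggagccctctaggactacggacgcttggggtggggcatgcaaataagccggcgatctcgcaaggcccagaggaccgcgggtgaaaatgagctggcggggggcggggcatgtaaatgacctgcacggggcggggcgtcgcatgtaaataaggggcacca
Tnfrsf1a: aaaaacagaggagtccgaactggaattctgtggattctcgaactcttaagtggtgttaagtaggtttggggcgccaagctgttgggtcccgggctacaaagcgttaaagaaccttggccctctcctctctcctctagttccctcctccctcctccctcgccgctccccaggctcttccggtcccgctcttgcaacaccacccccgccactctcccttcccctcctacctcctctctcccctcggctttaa
Cntf: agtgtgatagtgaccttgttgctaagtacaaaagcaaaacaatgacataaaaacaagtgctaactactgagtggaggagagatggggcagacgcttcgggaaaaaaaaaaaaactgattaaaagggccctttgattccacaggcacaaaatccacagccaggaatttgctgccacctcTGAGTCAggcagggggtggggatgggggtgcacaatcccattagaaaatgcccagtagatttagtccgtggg

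The motifs were a STAT motif (TTCNNNGAA), an AP-1 motif (TGANTCA), a cyclic AMP response element (CRE, TGACGTCA) and an NF-kB motif of 10 letters, which is GGGATTTTCC with any 2 bases after the run of G. The NF-kB letters were chosen with the known site of the Il6 promoter in mind, so that match is no finding. In the Il6 window the CRE stood 162 to 155 bases and the NF-kB motif 68 to 59 bases before the start. The Cntf window held an AP-1 motif 72 to 66 bases before the start. None of the 4 motifs was in the Il4r and Tnfrsf1a windows, which says only that these letters are not in these 250 bases. Promoters were matched for 62 of the 82 members. The NF-kB motif was in 9 of those 62 (14.5%), against 1.28% of all 27457 promoters of this length: Ccl20, Ccr3, Cxcl1, Cxcl2, Cxcl6, Ifngr2, Il1rn, Il6 and Tnfrsf4. The AP-1 motif was in 9 of 62 (14.5%), against 6.36% of all, and the STAT motif in 3 of 62 (4.84%: Ccl17, Cish and Socs1), against 7.52% of all. The CRE was in 1 of 62 (1.61%: Il6), against 1.7% of all, which is near the same share. A match is a description of the letters and not a binding site.

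Values are the deposited normalised intensities, with channel medians between 120 and 125. Each change is given as log2 of the lesion pool over its own control ± SE, from a fit of group and dye over all 52 channels, called the channel fit. It has no term for the array, so its SE and p-values treat channels that share an array as independent. A member was called over a course when limma's moderated F test over the 7 times gave a Benjamini-Hochberg adjusted p below 0.05 over all 8455 probes and at least 1 time differed by 1.5-fold. The channels were also joined into 26 arrays, 12 for SN and 14 for DR, by matching them to the deposited coefficients, and the Cy5 minus Cy3 differences were fitted with the same limits. This is called the within-array fit, and its values stand beside a result where it changes the call. The members' probes were dim: 63 of 82 lay below the median brightness of all probes and 39 below the lower quartile, and no background measure came with the values. Brightness differs between probes for reasons of sequence and does not rank transcripts. The members' median change lay between -0.05 and 0.09 over the 14 lesion times, where all probes had medians between -0.02 and 0.04.

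After the SN lesion 5 of the 82 members were called (6.1%), against 4.93% of all probes. Il6, Il4r, Tnfrsf1a and Il1r2 rose, and Il2rb fell. Higher calls made up 2.99% of all probes and lower calls 1.94%. The within-array fit called 4 members, against 5.85% of all probes: Il6, Il4r, Il6r and Ifng, all higher. Il6 and Il4r were called in both fits, where 2.79% of all probes were. All these shares of members lie near those of all probes. The heat map of changes shows every member at every time in both fits.

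**Figure D1:**
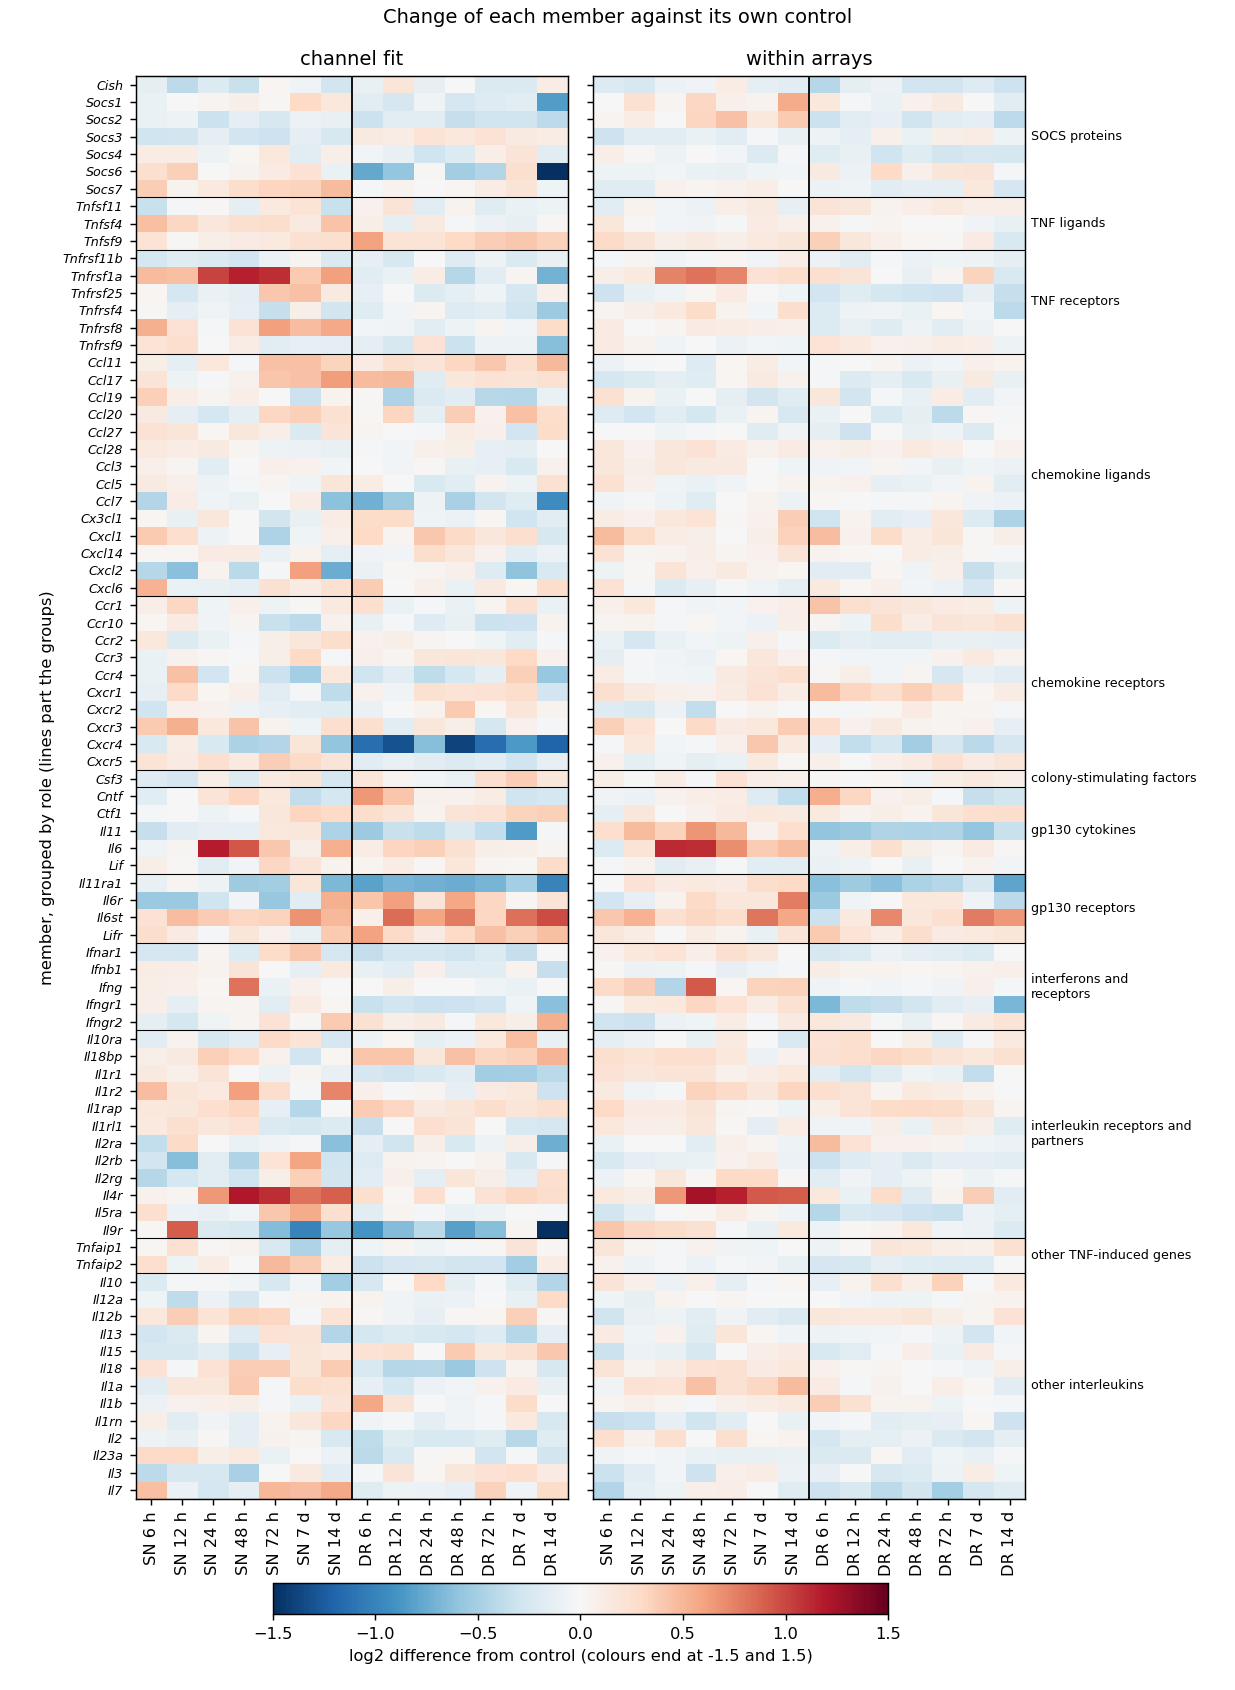
Heat map of the log2 difference of each of the 82 members from its own control at the 7 SN and 7 DR times, in the channel fit (left) and the within-array fit (right), with members grouped by role. Red is higher and blue lower than control, and colours end at -1.5 and 1.5. Il6, Il4r and Tnfrsf1a are red at 24 h and 48 h of the SN lesion in both panels, and the blue row of Cxcr4 in the DR times is pale within arrays.

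Il6 encodes interleukin-6, a cytokine that neurons, glia and immune cells can make and that signals through gp130. Its SN channels read 67, 60 and 40 in CON(SN), 61, 58 and 40 at 6 h, 70, 54 and 48 at 12 h, 143, 124 and 107 at 24 h, 117, 93 and 105 at 48 h, 53, 78 and 92 at 72 h, 78, 52 and 48 at 7 d, and 104, 79 and 59 at 14 d. All channels of 24 h and 48 h lay above all control channels, and the other times overlapped the control. The change was 1.17 ± 0.21 at 24 h, or 2.26-fold (course adjusted p = 6.9e-05 by limma), and 0.93 ± 0.21 at 48 h. Within arrays it was 1.12 ± 0.12 at 24 h and 1.10 ± 0.13 at 48 h, and the value at 72 h was also called there (0.70 ± 0.13, adjusted p = 0.0074 by limma, 0.47 in the channel fit). Il6 was called without any single channel or array. In the DR pools the lesion channels ran from 39 to 66, against 52, 45 and 38 in CON(DR), and no DR time was called.

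Il4r encodes the receptor chain that binds interleukin-4 and interleukin-13. Its SN channels read 236, 270 and 191 in CON(SN), 272, 272 and 189 at 6 h, 266, 200 and 218 at 12 h, 332, 331 and 367 at 24 h, 489, 537 and 487 at 48 h, 415, 475 and 540 at 72 h, 428, 396 and 389 at 7 d, and 415, 417 and 455 at 14 d. Every channel from 24 h to 14 d lay above every control channel. The change was 1.20 ± 0.21 at 48 h, or 2.30-fold (course adjusted p = 9.2e-06 by limma), and still 0.90 ± 0.21 at 14 d. At 24 h it was 0.64 ± 0.21, not called as a single time (adjusted p = 0.34 by limma) but called within arrays (adjusted p = 0.015). Within arrays it was 1.25 ± 0.14 at 48 h and 0.91 ± 0.14 at 14 d. The authors' deposited table gives 1.28 at 48 h. With its standard errors the course had an adjusted p of 0.084 by limma, which is not past the threshold. Of the ligands, Il13 was measured and not called.

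Tnfrsf1a encodes TNF receptor 1, the receptor through which soluble TNF signals in most cells. The SN channels read 505, 701 and 756 at 24 h, 695, 806 and 653 at 48 h and 607, 670 and 802 at 72 h, against 390, 358 and 307 in CON(SN). These 3 times did not overlap the control. The change was 1.17 ± 0.20 at 48 h, or 2.25-fold (course adjusted p = 1.7e-04 by limma). Within arrays it was 0.81 ± 0.20, and the course missed the threshold narrowly (adjusted p = 0.0505 by limma). With no dye term in the channel fit it also missed it (adjusted p = 0.057 by limma). The probe read brighter in Cy3 than in Cy5, by 0.32 (log2) in the SN set and 0.46 in the DR set.

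**Figure D2:**
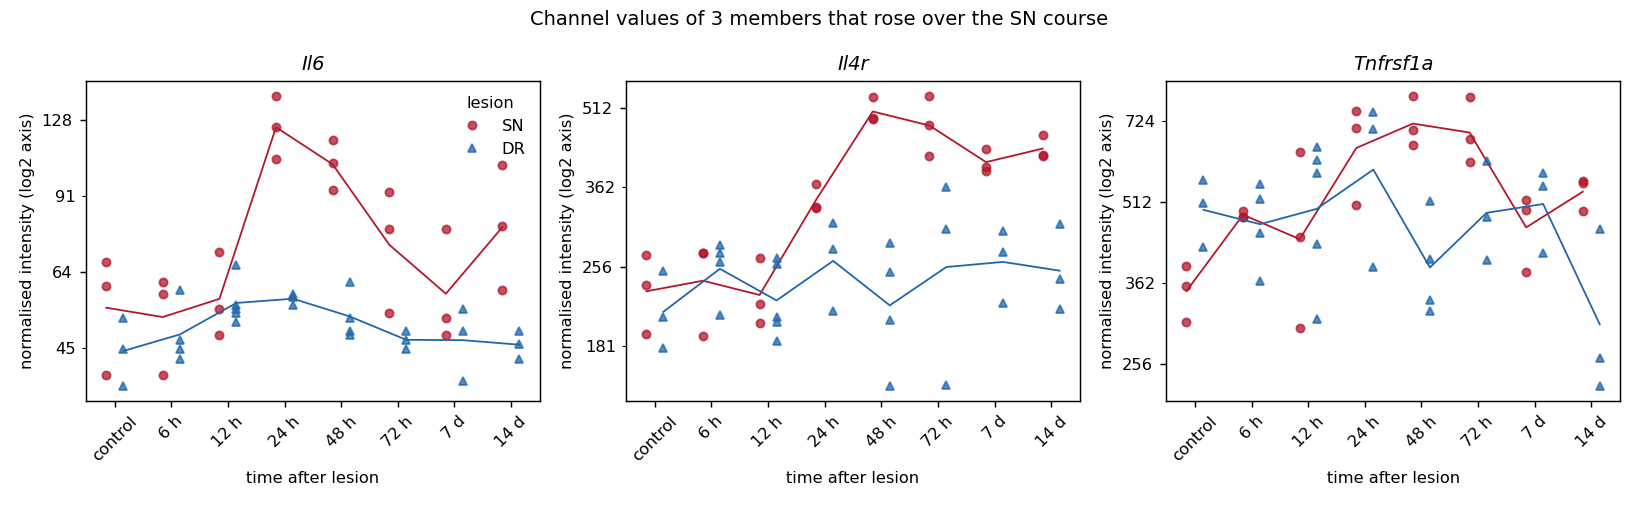
Normalised intensity of Il6, Il4r and Tnfrsf1a in every channel of the SN pools (red circles) and DR pools (blue triangles), by time after lesion, on a log2 axis, with lines through the geometric means of the pools. The SN channels of Il6 at 24 h and 48 h and of Il4r from 24 h on lie above their controls, and the DR channels of Il6 stay between 38 and 66.

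Il1r2 and Il2rb were called in the channel fit alone. Il1r2 encodes a decoy receptor that binds interleukin-1 without signalling. It read 94, 89 and 86 at 14 d of SN, against 64, 55 and 45 in CON(SN), a change of 0.73 ± 0.19 (course adjusted p = 0.029 by limma). Within arrays the change at 14 d was 0.33 ± 0.12 (course adjusted p = 0.082 by limma), and the call was lost without any 1 of 7 channels (CON(SN) replicate 3, SN48h replicate 1, SN7d replicates 2 and 3, and each SN14d channel). Il2rb, a chain of the interleukin-2 and interleukin-15 receptors, read 77, 62 and 71 at 12 h of SN, against 111, 79 and 136 in CON(SN). Its change of -0.64 ± 0.26 (course adjusted p = 0.023 by limma) was -0.14 within arrays, and the call was lost without SN12h replicate 2 or SN7d replicate 2 or 3 (highest adjusted p 0.12 by limma).

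Il6r and Ifng were called within arrays alone. Il6r, the chain that binds interleukin-6 before gp130 joins, read 253, 168 and 138 at 14 d of SN, against 134, 149 and 97 in CON(SN). The channels overlapped. Its change at 14 d was 0.77 ± 0.16 within arrays (course adjusted p = 0.0026 by limma) and 0.53 ± 0.34 in the channel fit. The within-array call was lost without 1 array, that of SN6h replicate 1 and SN14d replicate 1 (0.66, adjusted p = 0.16 by limma). Ifng, interferon gamma, read 42, 45 and 230 at 48 h of SN, against 41, 49 and 37 in CON(SN). A single channel made its within-array change of 0.91, which was 0.41 without that array (adjusted p = 0.19 by limma).

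The other gp130 members were not called after SN. Cntf, ciliary neurotrophic factor, is made by Schwann cells. It read 666, 646 and 656 at 48 h and 456, 442 and 378 at 7 d of SN, against 534, 662 and 466 in CON(SN), with a largest change of -0.37 ± 0.19 at 7 d (course adjusted p = 0.11 by limma). Lif, leukaemia inhibitory factor, stayed between 29 and 94 in all 52 channels. Il6st read 1184, 1105 and 1189 at 7 d of SN, against 818, 638 and 733 in CON(SN). These channels did not overlap, but the course was not called (0.67 ± 0.27 at 7 d, adjusted p = 0.76 by limma). A fit of the SN channels alone gave the same change an adjusted p of 0.032.

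After the DR lesion 4 of the 82 members were called (4.88%), against 7.81% of all probes. Cntf and Il6st rose, while Cxcr4 and Tnfrsf1a fell. Higher calls made up 5.05% of all probes and lower calls 2.76%. The within-array fit called 2 members, against 10.3% of all probes: Il6st higher and Ifngr1 lower. Of the 4 members of the channel fit, Il6st was thus the only one called in both, where 3.82% of all probes were. On the first principal component 4 DR channels lie far out on one side (DR48h replicate 4, DR72h replicate 3 and DR14d replicates 2 and 3) and DR7d replicate 1 on the other. Without those 4, Cntf, Il6st and Cxcr4 were still called over the DR course, and Tnfrsf1a was not (-0.39, adjusted p = 0.43 by limma). Each of the 4 members was called without DR7d replicate 1, and without all 5 channels the first 3 were called and Tnfrsf1a was not (-0.40, adjusted p = 0.40 by limma).

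Cntf was high at the first time. The 4 channels of DR6h read 561, 569, 584 and 602, against 340, 456 and 307 in CON(DR), with no overlap. At 12 h the 5 channels ran from 373 to 599, and at 14 d the 3 channels read 358, 300 and 259. The change at 6 h was 0.65 ± 0.18, or 1.57-fold (course adjusted p = 0.0019 by limma). Within arrays it was 0.55 ± 0.14 (course adjusted p = 0.0029 by limma), which is under 1.5-fold and so not called. Without CON(DR) replicate 3 the channel fit gave 0.46, also under 1.5-fold.

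Il6st encodes gp130 itself. Its DR channels read 1127, 1344, 1138, 823 and 1125 at 12 h, 1039, 740 and 1043 at 24 h, 1272, 1048, 901 and 974 at 48 h and 1068, 888 and 1753 at 14 d, against 452, 732 and 651 in CON(DR). These times lay above the control, while DR6h (477, 469, 847 and 892), DR72h (892, 420 and 1189) and DR7d (695, 1490 and 1167) overlapped it. The change was 0.98 ± 0.27 at 14 d, or 1.98-fold (course adjusted p = 0.021 by limma), and 0.65 ± 0.32 within arrays. The within-array course peaked at 7 d with 0.78 (adjusted p = 0.019 by limma), which was 1.41 without the array of CON(DR) replicate 3 and DR7d replicate 1, and was called without any single array. The call was lost without CON(DR) replicate 1 or DR6h replicate 1 or 2 (highest adjusted p 0.056 by limma), and in a fit of the DR channels alone (adjusted p = 0.23). Lifr, the partner of gp130 for Lif and Cntf, read 79 to 101 at DR6h, against 52 to 64 in CON(DR), a change of 0.60 ± 0.20 that was not called (course adjusted p = 0.31 by limma).

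Cxcr4 is the receptor of the chemokine Cxcl12 and is found on leukocytes and on some neurons and glia. It read 549, 678, 786 and 476 at DR48h, against 2028, 1896 and 1299 in CON(DR). Its channels lay below the control at every DR time but 7 d, whose channels read 1816, 793 and 583. The change at 48 h was -1.38 ± 0.26 (course adjusted p = 0.0042 by limma), and within arrays it was -0.52 ± 0.17 (course adjusted p = 0.15 by limma). The probe read brighter in Cy5 than in Cy3, by 0.66 (log2) in the SN set and 0.60 in the DR set. With no dye term the change was -1.48 and not called (adjusted p = 0.060 by limma). A second, dimmer Cxcr4 probe had 0.36 at its peak in the DR course (14 d) and was not called (adjusted p = 0.086 by limma). Within arrays its largest DR change was -0.26 (adjusted p = 0.24 by limma). In the SN pools Cxcr4 ran from 1294 to 4744, against 2015 to 3036 in CON(SN), and was not called.

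**Figure D3:**
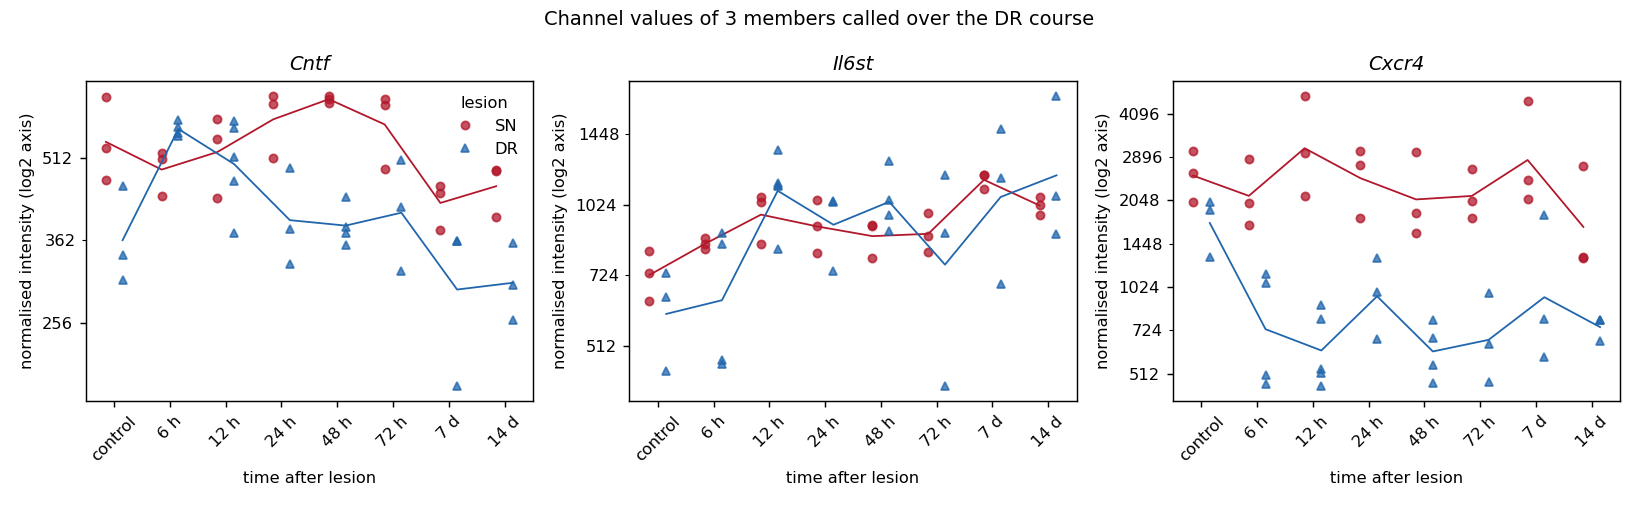
Normalised intensity of Cntf, Il6st and Cxcr4 in every channel of the SN pools (red circles) and DR pools (blue triangles), by time after lesion, on a log2 axis, with lines through the geometric means of the pools. The 4 channels of Cntf at DR6h read 561 to 602, above the 307 to 456 of CON(DR), and the Cxcr4 channels after the DR lesion read 1816 or less.

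Tnfrsf1a read 456, 263 and 233 at 14 d of DR, against 563, 423 and 509 in CON(DR), and the channels overlapped. Its change of -0.71 ± 0.19 (course adjusted p = 0.032 by limma) was -0.23 within arrays, and the call was lost without CON(DR) replicate 1, DR24h replicate 2 or DR14d replicate 2 or 3. The 2 low channels are among the 4 far out on one side of the first principal component. Ifngr1, the ligand-binding chain of the interferon gamma receptor, read 1062, 883 and 976 at DR14d, against 2281, 1745 and 838 in CON(DR). Its within-array change was -0.68 ± 0.18 at 14 d (course adjusted p = 0.035 by limma) and -0.62 ± 0.24 in the channel fit, where it was not called. The within-array call was lost without any of 7 of the 14 DR arrays. The Ifngr1 probe read brighter in Cy5 than in Cy3, by 0.29 (log2) in the SN set and 0.64 in the DR set.

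Il11 and its receptor Il11ra1, another pair that signals through gp130, were below CON(DR) on average at all 7 DR times in both fits, and neither course was called. Il11 read 110, 108, 132 and 139 at DR6h, against 214, 184 and 147 in CON(DR), with a within-array change of -0.59 ± 0.17 at that time (course adjusted p = 0.10 by limma). Il11ra1 read 824, 814 and 914 at DR14d, against 2504, 1749 and 1135 in CON(DR). Its change there was -1.01 ± 0.26 in the channel fit (course adjusted p = 0.14 by limma) and -0.79 ± 0.20 within arrays (course adjusted p = 0.066 by limma). As a single time, DR14d passed the threshold in both fits (adjusted p = 0.010 and 0.039 by limma), where 12.2% of all probes were called in the channel fit and 2.51% within arrays. The Il11ra1 probe also had the largest dye difference of the members, 0.80 (log2, Cy5 over Cy3) in the SN set and 0.49 in the DR set.

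None of the 14 chemokine ligands was called over either course in either fit. Ccl3, a ligand for macrophage and T cell receptors, lay between 44 and 72 in all channels. Ccl7 read 46 to 67 at DR14d, against 93 to 132 in CON(DR), a change of -0.95 ± 0.34 that was not called (course adjusted p = 0.27 by limma) and was -0.08 within arrays. Cxcl2, a neutrophil attractant, had its largest change at SN14d (-0.74 ± 0.39, course adjusted p = 0.17 by limma, 0.03 within arrays). Cx3cl1, a membrane-bound chemokine of neurons, changed by -0.46 at DR14d within arrays (course adjusted p = 0.0089 by limma), under 1.5-fold, and by -0.30 ± 0.25 at most in the channel fit. Of the 10 chemokine receptors only Cxcr4 was called, in the channel fit of DR. Ccr2, the receptor of blood monocytes, lay between 49 and 116.

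None of the 13 other interleukins was called over a course. In the channel fit Il1b, interleukin-1 beta, had the lowest adjusted p of them. It read 87, 99, 62 and 57 at DR6h, against 45, 57 and 46 in CON(DR), where the lowest DR6h channel equalled the highest control channel. Its change was 0.58 ± 0.18 (course adjusted p = 0.059 by limma), or 0.37 within arrays (0.073). After SN, Il1b stayed between 51 and 78. Within arrays after SN, Il1a had 0.47 at 14 d (adjusted p = 0.053 by limma), and Il15 had -0.32 at 6 h (adjusted p = 0.049), which is under 1.5-fold. Il18 had its largest change at DR48h (-0.56 ± 0.23, course adjusted p = 0.36 by limma). Il9r, an interleukin-9 receptor chain, read 45 to 88 at DR14d, against 111 to 352 in CON(DR), with no overlap. Its change of -1.74 ± 0.61 was not called (course adjusted p = 0.35 by limma) and was -0.20 within arrays. The antagonist Il1rn and the receptor Il1r1 were not called over either course. The 3 TNF ligands measured (Tnfsf4, Tnfsf9 and Tnfsf11) and 5 of the 6 TNF receptors were not called either.

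None of the 7 SOCS members was called over a course in either fit. Socs3, the inhibitor that binds gp130, lay between 77 and 145 in all channels, with a largest change of -0.31 ± 0.19 after SN (course adjusted p = 0.95 by limma) and 0.21 ± 0.19 after DR (0.99). Socs2 and Cish were likewise not called. Socs6 read 252, 109 and 127 at DR14d, against 217, 523 and 873 in CON(DR), and these channels overlapped. Its change of -1.61 ± 0.49 was called as a single time (adjusted p = 0.023 by limma) but not over the course (0.099), and was -0.03 within arrays.

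The courses of the 2 lesions were compared through the difference of their changes, each against its own control. Of the 82 members 4 differed (4.88%), against 4.18% of all probes: Tnfrsf1a, Il4r, Il1r2 and Il6, each with the higher change after SN. At 48 h Tnfrsf1a changed by 1.17 after SN and by -0.42 after DR (difference 1.59 ± 0.27, adjusted p = 6.2e-04 by limma). Il4r changed by 1.20 after SN and by 0.01 after DR at 48 h (difference 1.19 ± 0.29, adjusted p = 0.0078 by limma). Il6 changed by 1.17 after SN and by 0.36 after DR at 24 h (difference 0.82 ± 0.30, adjusted p = 0.042 by limma). The call of Il6 was lost without any 1 of 31 of the 52 channels, with adjusted p up to 0.095. Within arrays 5 members differed, against 8.72% of all probes: Il4r (adjusted p = 3.1e-04 by limma), Il6 (0.0046), Il6r (0.0096), Cx3cl1 (0.012) and Il1a (0.0499), each with the higher change after SN at its largest difference. In the channel fit the largest difference was of opposite sign for Il6r (-1.17 at 12 h, against 1.16 at 14 d within arrays) and Cx3cl1 (-0.39 at 12 h, against 0.83 at 14 d), and neither was called. Il4r and Il6 were called in both fits. Tnfrsf1a had an adjusted p of 0.063 within arrays and Il1r2 of 0.15.

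**Figure D4:**
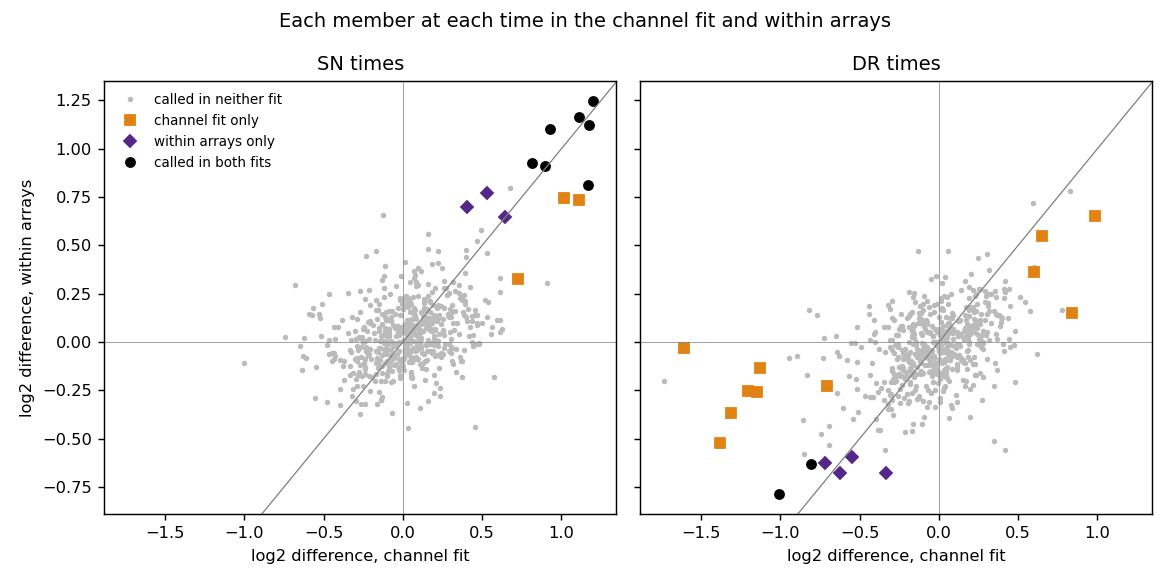
Log2 difference of each member at each time from its own control in the channel fit (x axis) and the within-array fit (y axis), for the SN times (left) and the DR times (right), with the line of equality. Black circles are called as single times in both fits, orange squares in the channel fit alone, purple diamonds within arrays alone. In the SN panel the called points lie at the upper right, not all of them near the line (Tnfrsf1a at 48 h had 1.17 and 0.81). In the DR panel the orange squares lie between the line and 0 on the y axis.

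Both fits called 3 members at SN48h as a single time, where 1.8% of all probes were called in the channel fit and 2.74% within arrays. The 3 were Il6, Il4r and Tnfrsf1a in each. At SN6h and SN12h no member was called in either fit, where 0.166% to 0.367% of all probes were called.

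With the pool as the unit, 14 of the 82 members (17.1%) differed between the 7 SN and 7 DR pools paired by time, against 24.1% of all probes. That comparison holds any difference between the SN and the DR arrays, so the difference of the control pools stands beside each value given. Il6 was higher in SN pools by 0.57 ± 0.14 (adjusted p = 0.012 by limma), against 0.30 between the controls. Il4r was higher by 0.56 ± 0.15 (adjusted p = 0.020), against 0.06 between the controls. Tnfrsf1a, which had the lowest p of the members in the interaction, was not called here (0.31 ± 0.14, adjusted p = 0.15 by limma), against -0.64 between the controls. Cxcr4 was higher by 1.61 ± 0.11 (adjusted p = 9.2e-06), against 0.75, and Il11ra1 by 1.26 ± 0.09 (adjusted p = 1.4e-05), against 0.76. Socs3 was lower in SN pools (-0.32 ± 0.06, adjusted p = 0.0041), against 0.07 between the controls. The other 9 were Cntf, Ctf1, Il11, Il1a and Il1r1, higher in SN pools, and Ifngr1, Ifngr2, Il1rn and Tnfaip1, lower. For 4 of these the controls differed by more than the lesion pools, in the same direction. Cntf had 0.41, against 0.54 between the controls, and Ctf1 0.24, against 0.37. Ifngr1 had -0.29, against -0.61, and Il1rn -0.29, against -0.38. The gap was smaller between the controls for Il11 (0.48, against 0.21), Il1a (0.26, against 0.05), Ifngr2 (-0.30, against -0.15) and Tnfaip1 (-0.37, against -0.29), and of opposite sign for Il1r1 (0.26, against -0.12). No member was called between the 8 later pools (48 h to 14 d) and the 6 earlier ones, where 0.0591% of all probes were called and 12.4% had an unadjusted p below 0.05, nor between the 14 lesion pools and the 2 control pools, where 0 of 8455 probes were called by limma and 7.05% had an unadjusted p below 0.05. Il4r had 0.39 between later and earlier pools (unadjusted p = 0.011, adjusted p = 0.31 by limma).

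Genes that carry or answer these signals were read from lists that are no members. The lists were chosen with earlier results of these data known, so their counts and medians are descriptions and no independent support. Over all probes 4.93% were called after SN and 7.81% after DR in the channel fit, and 5.85% and 10.3% within arrays. Of 15 measured JAK-STAT genes, Ptpn2, a phosphatase of that pathway, rose after SN (0.98 ± 0.24 at 24 h, adjusted p = 0.0091 by limma) and Jak2 rose after DR (0.89 ± 0.18 at 12 h, adjusted p = 0.026). Within arrays Jak2 was not called (0.61, adjusted p = 0.15 by limma), while Jak1 rose after DR (0.82 at 6 h, adjusted p = 0.045), as did Ptpn1, another phosphatase (0.68 at 24 h, adjusted p = 0.032). Ptpn2 was the 1 gene called there after SN. With 1 of 15 called after each lesion in the channel fit, and 1 after SN and 2 after DR within arrays, these counts lay near the shares of all probes. The list's median of the mean change over 7 times was -0.01 after SN and 0.31 after DR, against 0.00 for all probes after each. None of 10 measured genes of NF-kB, TNF and interleukin-1 signalling was called after either lesion. Of 21 measured genes known to respond to interleukin-6 type cytokines, 9 rose after SN and 6 after DR, and none fell in the channel fit. The median of this list was 0.32 after SN and 0.23 after DR, against 0.00 for all probes. Gal rose by 4.18 ± 0.67 at 72 h of SN. Reg3b rose by 4.08 ± 0.29 at 72 h of SN and 3.46 ± 0.29 at 7 d of DR. Gfap, the glial filament, rose by 1.99 ± 0.20 at 24 h of SN and by 1.20 ± 0.18 at 12 h of DR, and Timp1, an inhibitor of matrix proteases, by 1.49 ± 0.19 at 48 h of SN and by 1.03 ± 0.19 at 72 h of DR. Gal, Vip, Sprr1a and Serpina3n were called after SN and not after DR in the channel fit, and Lbp after DR and not after SN, differences that were not tested here. Within arrays 10 rose after SN, while 8 rose and 1 fell after DR, Gal and Serpina3n among the called. Any link between the genes of this list and Il6 or another member was not tested.

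Of 19 measured interferon-response genes 4 rose (Mx2, Irf8, Ifitm3 and Tap1) and 1 fell (Irf7) after SN. After DR 3 rose (Mx2, Ifitm3 and Gbp2). Within arrays 4 rose after SN (Mx2, Ifitm3, Psmb8 and Tap1). The same 3 rose there after DR, while 4 fell (Irf8, Ifitm2, Oas1a and Tap1). The list's median of the mean change over 7 times was 0.16 after SN and 0.05 after DR, against 0.00 for all probes after each. Mx2, an interferon-induced antiviral protein, had the largest change of the list after each lesion. It rose by 2.13 ± 0.24 at 48 h of SN and by 1.40 ± 0.24 at 7 d of DR. The interferons Ifnb1 and Ifng were not called over a course in the channel fit.

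Lists of cell type markers, also chosen with earlier results of these data known, were read over the same courses. Of 8 measured macrophage markers 4 rose after SN and the same 4 after DR (Aif1, Csf1r, Cd74 and Ctss). Within arrays after DR, Csf1r was not called (0.37 at 48 h), C1qb rose (0.79 at 24 h, adjusted p = 0.0044 by limma), and Aif1 was called with its largest change lower (-0.90 at 6 h), though it had 0.89 at 48 h. Their list summed to 4247 to 7931 in the SN pools, against 4063 in CON(SN), and to 4564 to 7216 in the DR pools, against 4446 in CON(DR). Of 5 neutrophil markers 3 fell after SN and 4 after DR, and within arrays all 5 fell after each lesion. None of 8 T cell markers was called in either fit, nor was the 1 measured B cell marker. Of 7 mast cell markers Mcpt10 fell after each lesion in both fits. Of 4 endothelial markers Flt1 rose after SN and Vwf fell after DR in the channel fit, and neither was called within arrays. The 14 measured sensory neuron markers summed to 169617 to 200834 in the SN pools, against 182520 in CON(SN), and none of them was called after SN. In the DR pools they summed to 178739 to 197252, against 209369 in CON(DR), and Ntrk3 fell. Within arrays Ntrk3, Trpv1 and P2rx3 were called after DR, 1 higher and 2 lower. The 6 measured Schwann cell markers summed to 43498 to 64622 in the SN pools, against 63275 in CON(SN), and to 60238 to 72071 in the DR pools, against 53978 in CON(DR). In the channel fit Pmp22 fell after SN and S100b rose after DR, and neither was called within arrays. All 3 measured fibroblast markers (Col1a2, Col3a1 and Lum) rose after DR in both fits, with their largest changes at 7 d, and none was called after SN. They summed to 2201 to 3146 in the SN pools, against 2459 in CON(SN), and to 2575 to 5058 in the DR pools, against 2505 in CON(DR). Of 3 red cell markers Hbb fell in both courses (-2.18 at 14 d of SN and -1.23 at 48 h of DR), and Alas2 fell after DR. Within arrays Alas2 fell after SN too. Of 6 satellite glia markers Gfap rose in both courses and Glul rose after DR (0.90 at 6 h). Within arrays Fabp7, Gfap and Glul were called after DR, 2 higher and 1 lower at their largest change. The part of these cells in the changes of Il6, Il4r, Tnfrsf1a, Cntf and Il6st was not tested.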

How the data were processed

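Members and lists were chosen with earlier results of these data known. Per the labels' design text, pools were hybridised in an interwoven loop. The authors deposited intensity values that were already normalised (9 to 90077), by a method that the sources used here do not give. Log2 values were taken from them with no pseudocount, background correction or filter. The authors also deposited log2 coefficients against time zero and a standard error score for each, for which the submitters' processing notes name limma. Of 8455 probes, 6907 had 1 gene symbol in the platform annotation. 6 members had several probes. Every test was run in limma 3.58.1 under R 4.3.3, with p-values adjusted over all probes after Benjamini-Hochberg. The course tests of both fits, with changes planted after SN alone, and the pool tests were tested on simulated data. The interaction and the calls at single times were not. The pool fits used each group's mean after removal of the dye term.

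Named members were those called over a course, in the interaction or in a pool test, the 2 with the largest change in each role group, and a set of members named whatever their values. Il13, Il15, Il6r, Ifnb1 and Tnfsf11 fall outside that rule and were named after their values were seen. So were the members that held a motif. The within-array fit had a dye term for each set of arrays, a choice made after the data were seen, and it rests on joins that used the deposited coefficients.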

Additional observations from a re-analysis of the deposited data

Results flagged for a closer look

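The 41 named members were read in the 3 pools with 4 or 5 channels, which gives 123 groups, and in 4 of these 1 channel lay far from the others. By its construction the 95% limit used is passed by chance in about 1 in 20 groups. Ccr4 read 93 in DR48h replicate 3, against 52 to 55 in the other channels of that pool. Ctf1 read 110 in DR6h replicate 3, against 78 to 79. Il18 read 58 in DR12h replicate 3, against 51 to 52. Il7 read 107 in DR12h replicate 2, against 48 to 60.

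The changes of 4 members differed between the lesions in the interaction test by limma. The adjusted p was 6.2e-04 for Tnfrsf1a, 0.0078 for Il4r, 0.032 for Il1r2 and 0.042 for Il6, each with the higher change after SN.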

How the results depend on the processing

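Channels are repeats of 1 pool, most member probes are dim, and no background measure came with the values, so small changes of dim members could not be told from noise. The 5 members called over the SN course became 3 with a pseudocount of 32, 3 with dim probes left out, 2 in the authors' deposited table and 3 within arrays with no dye term. The probes of Il6 and Il1r2 were themselves among the dim ones left out. That setting thus did not test these 2 members again, over the course or in the interaction. The 4 of the DR course became 2 with no dye term, 2 within arrays, 1 in a fit of the DR channels alone, 0 in the authors' deposited table, and 0 within arrays with no dye term or with 1 dye term for both sets, the last 2 chosen after seeing the data. The 4 of the interaction became 2 with dim probes left out, 2 without the 4 DR channels far out on one side of the first principal component, and 2 without these and DR7d replicate 1 (chosen after seeing the data). The 23 calls at single times became 5 in the authors' deposited table. Leaving out 1 channel gave 3 to 7 members over the SN course, 3 to 6 over the DR course, 2 to 6 in the interaction and 17 to 33 calls at single times. Leaving out 1 array within arrays, also chosen after seeing the data, gave 3 to 5 for SN and 1 to 6 for DR. Leaving out 1 pair of pools gave 6 to 15 members between SN and DR pools, and 0 in every case for the other pool tests. Il6r at SN72h, not called in the channel fit (-0.57), had 0.17 within arrays. The hybridisation numbers of the titles do not pair the samples: residuals of same-numbered channels had a mean correlation of 0.02 (-0.63 to 0.57). A replicate block gave 5 members over the SN course, 5 over the DR course, 5 in the interaction and 22 calls at single times. Of the single-gene values under the other settings, 449 kept their side of the threshold, 35 lost and 5 gained a call, and 1 reversed. The 449 include values that were called under neither setting. Only the 5 calls of the SN course and the 4 of the DR course could be lost, so the 449 do not measure how stable the calls were. Direction was compared only where a value was called in at least 1 of the settings compared, and values called in neither could change sign. Under the settings chosen after seeing the data, run for called members alone, 12 kept and 15 lost their call.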
